A study of Homo sapiens with 6 samples.

Results

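The miR-548 family was described in small RNA sequencing libraries from U2OS cells, a long-used line grown from a human osteosarcoma. Members were all rows of the deposited table whose name starts with hsa-miR-548, which gave 53 of the 1155 mature miRNAs (4.59% of rows). The genotype label was LINC00673 in 3 libraries, read from the design text as cells with a stably integrated shRNA against the long non-coding RNA LINC00673, and NC in the other 3, which the design text calls wild type. Whether NC cells carried a control construct and whether the shRNA cells were 1 clone is not stated in the labels. The sample titles of both groups start with Lv (Lv_Lin and Lv_NC), so NC cells may not be untreated. Nor is it stated that replicates came from separate cultures, and p-values therefore rest on a spread among libraries that may be technical. LINC00673 itself is not a row of a miRNA table, so its depletion was not checked.

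MicroRNAs of the miR-548 family come from Made1 elements, short palindromic DNA transposons of the mariner group that spread through primate genomes. A transcript that reads through such an element folds back on itself into a hairpin, which can enter the pathway of Drosha and Dicer and yield a 5p and a 3p mature arm. A mature miRNA guides Argonaute to transcripts largely through its seed, bases 2 to 8 from the 5′ end. Because the copies are similar and lie on many chromosomes, a short read can match several members, and how the authors treated such reads is not stated.

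The mature sequences show how alike the members are, and they were available from RefSeq (GRCh38.p14) for 32 of the 53 rows. Those 32 rows held 30 distinct sequences and 18 distinct seeds. Seed AAAGUAA was shared by 7 rows, seeds AAAAACU and GCAAAAG by 4 rows each and AAAACUG by 3. None of the 985 other listed miRNAs with a RefSeq sequence had any of these 18 seeds. The rows below are those with the AAAGUAA seed, which include the most abundant member; capitals mark the seed.
miR-548j-5p: aAAAGUAAuugcggucuuuggu
miR-548ap-5p: aAAAGUAAuugcggucuuu
miR-548b-5p: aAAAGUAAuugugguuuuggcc
miR-548aq-5p: gAAAGUAAuugcuguuuuugcc
miR-548ab: aAAAGUAAuuguggauuuugcu
miR-548w: aAAAGUAAcugcgguuuuugccu
miR-548y: aAAAGUAAucacuguuuuugcc

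The 19 bases of miR-548ap-5p are contained whole in miR-548j-5p, so a read of that length cannot be told apart between these names. The 5 rows printed next are further members with a RefSeq sequence, and their seeds differ from AAAGUAA and from each other. The miR-548n sequence is shifted by 1 base against miR-548ab and shares a run of 20 bases with it.
miR-548n: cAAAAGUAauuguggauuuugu
miR-548k: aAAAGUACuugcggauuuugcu
miR-548u: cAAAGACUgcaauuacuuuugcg
miR-548e-5p: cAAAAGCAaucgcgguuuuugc
miR-548ay-3p: cAAAACCGcgauuacucuugca

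Some rows hold long runs that are reverse complements of each other, and the next rows are printed for that reason. A run of 22 bases of miR-548aq-3p is the exact reverse complement of miR-548g-5p, miR-548x-5p and miR-548aj-5p, which are themselves 1 sequence under 3 names. A run of 21 bases of miR-548bc is likewise the reverse complement of miR-548f-5p. Of the 496 pairs of rows with a sequence, 10 shared a reverse complementary run of at least 16 bases.
miR-548aq-3p: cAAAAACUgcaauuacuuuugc
miR-548g-5p: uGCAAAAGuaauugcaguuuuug
miR-548bc: aAAAACUGugauuacuuuugc
miR-548f-5p: uGCAAAAGuaaucacaguuuuu

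As a description of the whole family, the 7 letters AAAAGUA were present in 14 of the 32 sequences and in 1 of the 985 other miRNAs, on the mature strand. Their reverse complement UACUUUU was present in another 8 of the 32, and in 3 of the 985. The GC content of the members was low, with a median of 34.1% and a range of 15.8 to 54.5%, against a median of 50% for the other miRNAs. Of those others, 7.11% had a GC content at or below the family median.

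GENCODE release 29 (GRCh38, the assembly also called hg38, which the submitters' processing notes name) lists 72 MIR548 precursor genes on 22 chromosomes. By the letters of the name, 56 of them belong to 37 of the 38 precursor names in the table. None of the 56 was exonic in a gene on the same strand, while 29 were intronic in one, 26 of these in a protein-coding gene. A further 10 lay only opposite a gene, and 17 lay outside annotated genes. In 3 cases, 2 precursors occupy the same interval on opposite strands. One such pair is MIR548C and MIR548Z (chr12:64622509-64622605, plus and minus strand), where MIR548C is intronic in RASSF3 and MIR548Z runs antisense to it. Another is MIR548AA2 and MIR548D2 (chr17:67471489-67471585, plus and minus strand), where MIR548AA2 is intronic in PITPNC1.

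The family was a small part of the small RNA pool. The listed miRNAs of a library held 211242 to 543144 reads, of which 135 to 343 were on miR-548 rows. Values are CPM, reads scaled to a common library total, and 1 read was worth 1.31 to 3.38 CPM. As a check of the cells, miR-21-5p and miR-221-3p, abundant in many tumour lines, stood at 116611.7 to 181623.79 and 13721.7 to 25100.05 CPM. The muscle miRNA miR-133a-3p was above 0 in 1 library, at 1.35 CPM. The liver miRNA miR-122-5p had been expected at or near 0 but was at 9.63 to 20.3 CPM. This is above the median miR-548 row (4.12 CPM), and its source was not tested.

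The summed level of the family differed little between libraries. It was 449.70, 405.46 and 449.72 CPM in LINC00673 replicates 1, 2 and 3, and 415.89, 446.24 and 456.76 CPM in NC replicates 1, 2 and 3. The groups overlapped, with LINC00673 replicate 2 lowest and NC replicate 3 highest. Group means were 435 ± 25.5 and 440 ± 21.2 CPM (SD, n = 3 each). The difference was -4.67 CPM with a standard error of 19.2 (exact permutation p = 0.7, two-sided, where 0.1 is the smallest p that 3 against 3 libraries allow). Its sign was negative on the deposited scale and with the listed miRNA reads as the total (-17.7) and positive after trimmed-mean (TMM) scaling (27.8), so no direction is stated. As in any bulk library, less miR-548 RNA per cell and fewer cells that make it cannot be told apart. The spread between replicates, 5.87% and 4.83% of the mean, was close to the counting error of a single library, 5.40 to 8.61%. That error takes the reads of every row as separate, which does not hold if rows share reads.

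**Figure D1:**
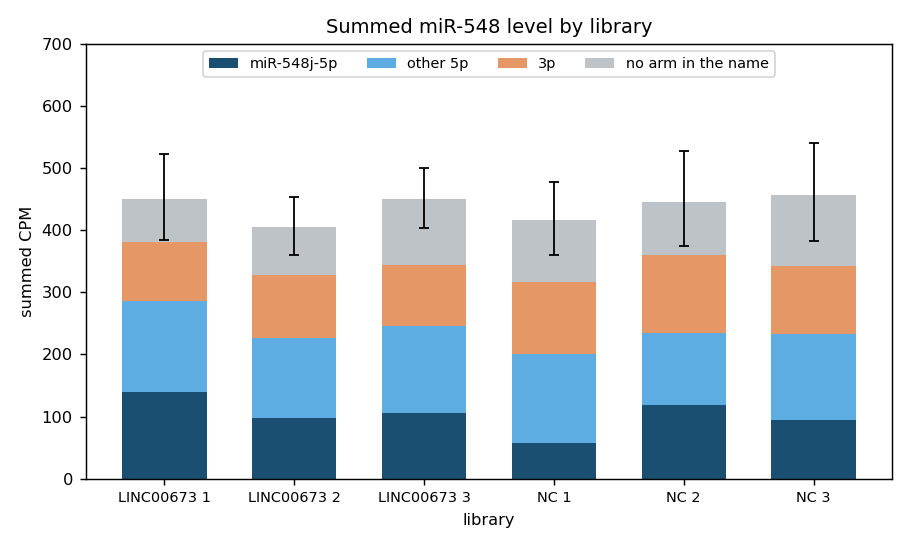
Summed CPM of the 53 miR-548 rows in each library (bars), divided into miR-548j-5p, the other 5p rows, the 3p rows and rows with no arm in the name; lines are exact 95% Poisson intervals of the sum, for counting error alone. The 6 totals lie between 405.46 and 456.76 CPM and their intervals overlap. Rows with identical values were counted under each name, so the intervals are too narrow if such rows share reads.

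A few rows carried much of this total. The most abundant, miR-548j-5p, had 23.2% of all miR-548 reads, and 7 rows together passed 50% of the summed mean CPM. miR-548j-5p is cut from MIR548J (chr22:26555212-26555323, minus strand), intronic in TPST2, which encodes a tyrosylprotein sulfotransferase. Its precursor (GENCODE 29, GRCh38) is shown because it yields the leading member; the 5p and 3p mature arms are in capitals, in that order.
MIR548J: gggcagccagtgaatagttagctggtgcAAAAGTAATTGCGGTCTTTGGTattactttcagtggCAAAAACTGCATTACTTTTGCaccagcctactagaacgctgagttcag

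The level of miR-548j-5p was 139.36, 96.99 and 106.21 CPM in LINC00673 replicates 1, 2 and 3 and 57.93, 118.80 and 94.73 CPM in NC replicates 1, 2 and 3. NC replicate 1 was lowest and LINC00673 replicate 1 highest, and the groups overlapped. On the log2(CPM + 1) scale the LINC00673 mean was 0.38 above the NC mean (standard error 0.30, limma adjusted p = 0.718). Its rank was 164 among all 1155 rows by mean CPM. It took 31.0, 23.9 and 23.6% of the family's reads in the LINC00673 libraries (95% Wilson intervals 24.5 to 38.3, 19.4 to 29.05 and 19.4 to 28.4%). In the NC libraries it took 13.9, 26.6 and 20.7% (9.82 to 19.4, 19.97 to 34.5 and 14.8 to 28.3%).

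The second row, miR-548a-3p, was at 10.52, 35.02 and 32.78 CPM in LINC00673 libraries and at 37.24, 57.79 and 30.45 CPM in NC libraries. LINC00673 replicate 1, with 4 reads, was far below the other 5 libraries. Next came miR-548k, from an intron of PPFIA1 (liprin alpha 1, a scaffold of cell adhesion sites), at 15.78, 16.16 and 23.60 against 10.35, 16.05 and 43.98 CPM. NC replicate 3 stood highest, and the other libraries of the 2 groups overlapped. The level of miR-548d-5p was 26.30, 14.82 and 19.67 against 12.41, 19.26 and 20.30 CPM, again with overlap. The level of miR-548u, from an intron of PRIM2 (a subunit of DNA primase), was 13.15, 14.82 and 11.80 against 33.10, 22.48 and 10.15 CPM, with NC libraries on both sides of the LINC00673 range.

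Below these, 8 further rows had a mean of at least 10 CPM. They were miR-548b-5p, miR-548n, miR-548ae-5p, miR-548aq-3p, miR-548ay-5p, miR-548ay-3p, miR-548o-5p and miR-548c-5p, with means over the 6 libraries of 15.7, 15.5, 14.3, 14.3, 12.3, 10.9, 10.7 and 10.7 CPM. In each of them the groups overlapped. Another 12 rows had a mean of 5 to 10 CPM, 16 of 1 to 5 CPM and 12 under 1 CPM. The median row was at 4.12 CPM, against 2.87 CPM for the other miRNAs in the table.

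**Figure D2:**
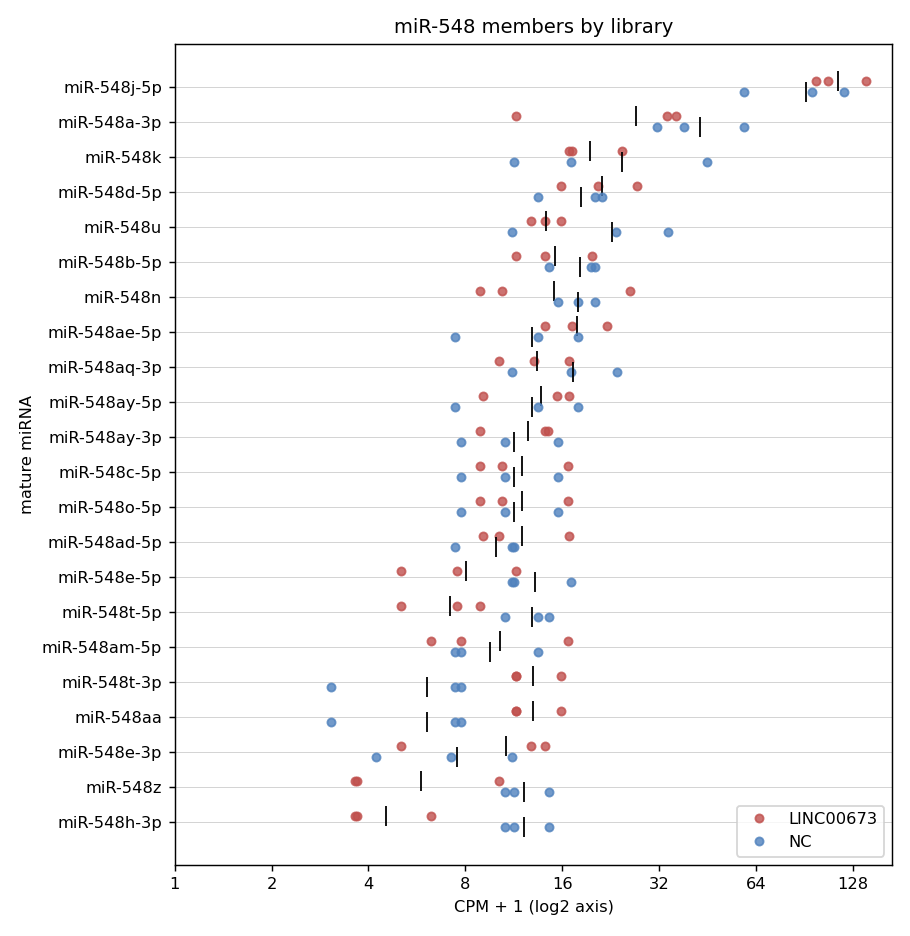
CPM + 1 on a log2 axis for the 20 members with the highest means and the 2 further members whose groups do not overlap; each point is 1 library and each vertical tick the group mean. Only miR-548t-5p, miR-548t-3p, miR-548aa, miR-548z and miR-548h-3p show groups that do not overlap.

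Many members were near the detection limit. Of the 53 rows, 24 (45.3%) were above 0 in all 6 libraries, as were 39.2% of all rows. A further 17 rows were above 0 in 2 to 5 libraries and 12 in 1 library, of which 8 rest on 1 read. Under 3 reads in every library were 20 rows. The number of rows above 0 was 38, 43 and 39 in LINC00673 libraries and 39, 30 and 33 in NC libraries (means 40.0 ± 2.65 and 34.0 ± 4.58, exact permutation p = 0.3). At the depth of the shallowest library, the expected numbers were 35.3, 33.5 and 31.9 against 33.8, 29.9 and 33.0 (means 33.5 ± 1.69 and 32.2 ± 2.10, exact permutation p = 0.5). The difference in group means was 6.0 rows at the libraries' own depths and 1.31 rows at equal depth. With identical rows counted once, 44 rows remained, of which 36, 38 and 36 were above 0 in LINC00673 libraries and 34, 28 and 31 in NC libraries. These groups did not overlap (difference 5.67 rows, exact permutation p = 0.1, the smallest possible). The merging also joined rows equal on very few reads in a single library, among them 4 rows with 1 read each in NC replicate 1. Equal values at that depth do not show shared reads. With all rows counted the groups overlapped, with 39 rows in NC replicate 1 and 38 in LINC00673 replicate 1. At equal depth the numbers were 33.3, 29.6 and 29.5 against 30.3, 27.9 and 31.0, with overlap (difference 1.08 rows, exact permutation p = 0.6), in a comparison chosen after seeing the data.

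**Figure D3:**
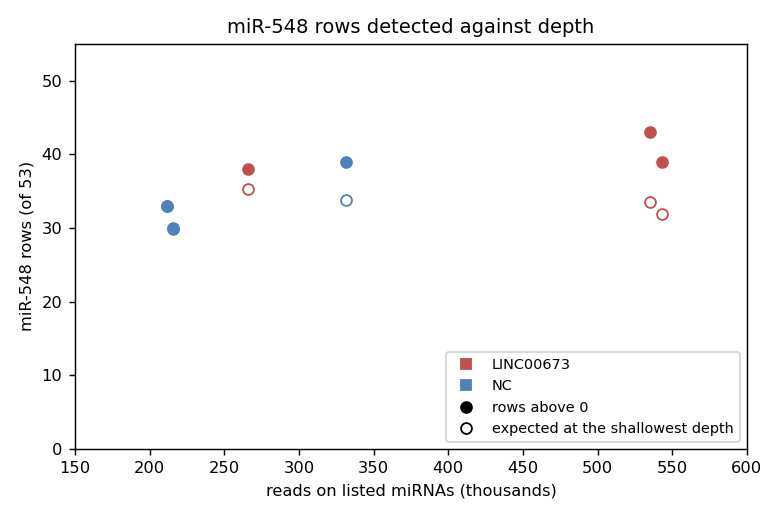
Number of miR-548 rows above 0 (filled) and the number expected at the depth of the shallowest library (open), against the reads on listed miRNAs, for each library. Filled points run from 30 to 43 rows and open points from 29.9 to 35.3 rows. For NC replicates 2 and 3 the open and filled points coincide.

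Rows with identical values formed 5 sets with 14 rows in all. In 2 sets the rows were above 0 in all 6 libraries, miR-548aa with miR-548t-3p (28 reads each) and miR-548c-5p with miR-548o-5p (34 reads each), and each pair holds the same read numbers in every library. Counting each identical set once gave a difference of -13.3 CPM in the summed level, which had the same sign as before. The other 3 sets, with 10 rows, were above 0 in 1 library each. The first held miR-548g-5p, miR-548x-5p, miR-548aj-5p and miR-548al at 2 reads in LINC00673 replicate 2. Of these 4, the first 3 have the same sequence and miR-548al does not, so at this depth equal values do not show shared reads. The second held miR-548ad-3p and miR-548ar-3p, with 1 read each in LINC00673 replicate 3 and different sequences. The third held miR-548ax, miR-548az-3p, miR-548i and miR-548s, with 1 read each in NC replicate 1.

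A further pair was nearly identical. The rows miR-548z and miR-548h-3p had equal reads in 5 of 6 libraries and differed in LINC00673 replicate 3, with 7 and 4 reads. Some mature sequences occur in several precursors. That of miR-548aq-3p was found in MIR548AQ and MIR548H3, and that of miR-548f-3p in 5 precursors, MIR548F1 to MIR548F5. The sequence of miR-548j-5p was found in MIR548J alone among the 72 precursors.

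Of the 53 members, 41 had a mean of at least 1 CPM and were tested with the rest of the table (810 rows) in limma. No member passed at an adjusted p under 0.05, where 0.247% of all tested rows did, and the smallest adjusted p of a member was 0.418. At an unadjusted p under 0.05, 1 member (2.44%) passed, against 11.1% of all rows. In edgeR's quasi-likelihood test on the recovered reads, 0 members passed the adjusted threshold (smallest adjusted p = 0.393) and 0 an unadjusted p under 0.05, where 2.72% of all rows passed after adjustment. DESeq2 gave an adjusted p to 1 member, which did not pass (adjusted p = 0.632), while 7.04% of the 213 rows with an adjusted p did. Without NC replicate 3, limma passed 28 rows of the whole table and 0 members, and without any other single library it passed 0 rows.

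The log2 differences of the tested members ran from -1.46 to 1.64 with a median of 0.13, against 0.06 over all tested rows. They were above 0 in 25 members and below 0 in 16, and TMM scaling, edgeR and DESeq2 put 25, 24 and 24 members above 0. The standard error of a member had a median of 0.69, so a member at that median had to differ by well over 1 on the log2 scale to stand out. It was smaller for the 2 most abundant rows, 0.302 for miR-548j-5p and 0.455 for miR-548a-3p. Groups did not overlap in 5 of the 41 members (12.2%), against 15.4% of all tested rows. All 5 rest on 1 to 11 reads a library, and 2 of them hold identical values.

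**Figure D4:**
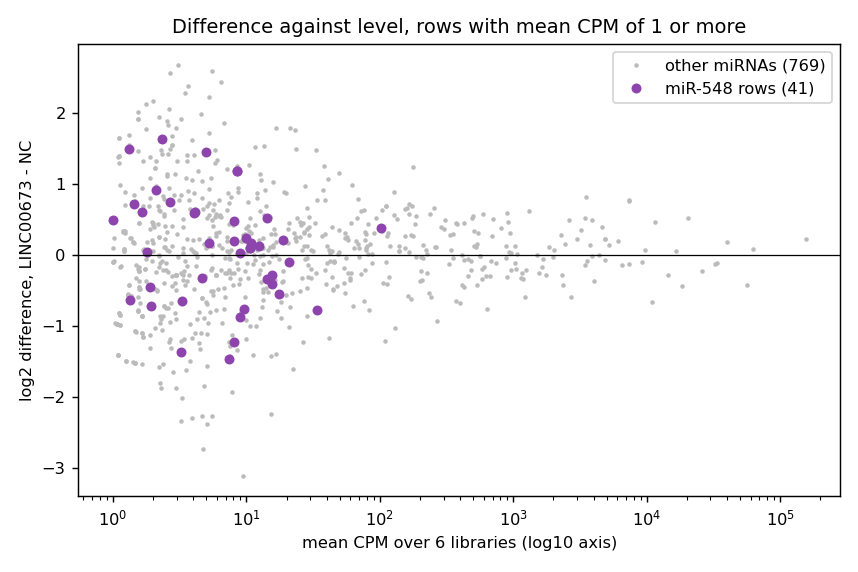
Log2 difference (LINC00673 minus NC, log2(CPM + 1) scale) against the mean CPM over 6 libraries (log10 axis) for the 810 tested miRNAs, with the 41 miR-548 rows as large points. Members range from -1.46 to 1.64 and lie within the spread of other miRNAs of the same level.

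In 2 of the rows without overlap, listed as miR-548t-3p and miR-548aa, the LINC00673 libraries were above the NC libraries (7.78% of all tested rows were separated in this direction). The level was 10.52, 14.82 and 10.49 CPM (4, 11 and 8 reads) against 2.07, 6.42 and 6.77 CPM (1, 2 and 2 reads). All NC values were under the 3-read floor of their library, 6.21 to 10.1 CPM. On the log2 scale the difference was 1.19 (standard error 0.67, limma adjusted p = 0.52).

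In the other 3, the LINC00673 libraries were below the NC libraries (7.65% of all tested rows were). The level of miR-548h-3p was 2.63, 2.69 and 5.24 CPM (1, 2 and 4 reads) against 10.35, 9.63 and 13.53 CPM (5, 3 and 4 reads), and the log2 difference was -1.46 (standard error 0.69, limma unadjusted p = 0.0439, adjusted p = 0.418). This was the 1 member under the unadjusted threshold. The near-identical miR-548z was at 2.63, 2.69 and 9.18 CPM against the same NC values, a log2 difference of -1.23 (standard error 0.69, limma adjusted p = 0.52). The level of miR-548t-5p was 7.89, 4.04 and 6.56 against 12.41, 9.63 and 13.53 CPM, a log2 difference of -0.87 (standard error 0.62, limma adjusted p = 0.659).

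The 2 arms of miR-548t lay in opposite order between the groups. The 3p arm took 57.1, 78.6 and 61.5% of the miR-548t reads in LINC00673 libraries and 14.3, 40.0 and 33.3% in NC libraries, of 5 to 14 reads a library. Means were 65.8 ± 11.3% and 29.2 ± 13.3% (SD, n = 3 each), a difference of 36.5 percentage points (exact permutation p = 0.1, the smallest possible). It was 1 of 10 precursors compared, those with at least 3 reads in every library, and the other 9 had overlapping groups. The 3p row of miR-548t equals that of miR-548aa in every library, so the reads of these names cannot be told apart.

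Over the whole family, reads were mostly on 5p rows, of which miR-548j-5p was the most abundant. The table has 20 rows named 5p, 18 named 3p and 15 with no arm in the name, and reads on the last were left out of the arm share. The 3p share was 24.8, 31.1 and 28.6% in LINC00673 replicates 1, 2 and 3 (95% Wilson intervals 18.5 to 32.4, 25.7 to 37.2 and 23.5 to 34.4%). It was 36.6, 34.8 and 31.7% in NC replicates 1, 2 and 3 (29.4 to 44.5, 26.6 to 44.0 and 23.4 to 41.3%). Every LINC00673 library was below every NC library, though NC replicate 3 and LINC00673 replicate 2 differed by less than their counting error. Group means were 28.2 ± 3.18% and 34.4 ± 2.49%, a difference of -6.17 percentage points (exact permutation p = 0.1, the smallest possible). Without miR-548j-5p the 3p share was 39.1, 44.2 and 41.4% in LINC00673 libraries and 44.8, 52.0 and 43.8% in NC libraries. The lead of the 5p rows was thus smaller without that row, and absent in NC replicate 2. The difference between groups was then -5.29 points, and the groups overlapped (exact permutation p = 0.2). The sum of 3p rows was 98.5 ± 3.85 CPM in LINC00673 libraries and 116 ± 8.48 CPM in NC libraries (exact permutation p = 0.1). That of 5p rows was 253 ± 30.9 and 223 ± 19.2 CPM (exact permutation p = 0.3).

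**Figure D5:**
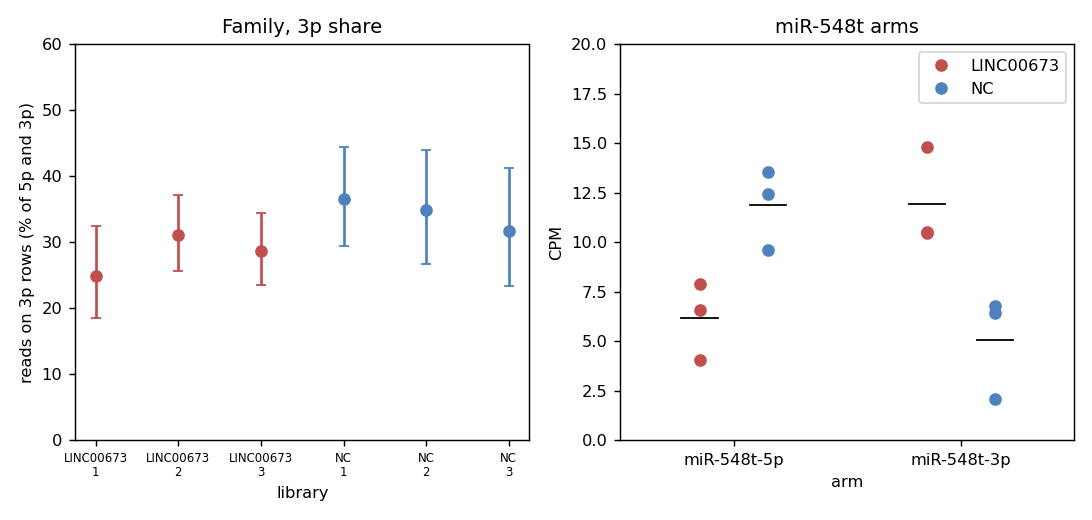
Left, share of miR-548 reads on 3p rows in each library, with 95% Wilson intervals. Right, CPM of both arms of miR-548t in each library, with group means as lines; LINC00673 libraries are below NC libraries for the 5p arm and above them for the 3p arm, on 1 to 11 reads a value.

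Among 15 precursor names with both arms listed, 11 had more reads on the 5p arm and 4 on the 3p arm, summed over the libraries. The 11 include miR-548c and miR-548o, whose 5p rows are identical (34 reads each) and may hold the same reads. The arms of miR-548j were the most unequal of the abundant ones, with 299 reads on 5p and 10 on 3p, a 3p share of 3.24% (95% Wilson interval 1.77 to 5.85%). The share was 6.90% for miR-548d (2.71 to 16.4%) and 14.8% for miR-548b (7.70 to 26.6%). By contrast, miR-548ay was near balance, with 36 and 33 reads, and miR-548aq was the reverse of miR-548j, with 13 reads on 5p and 41 on 3p (75.9%, 63.1 to 85.4%). The 3p sequence of miR-548aq also occurs in MIR548H3, while its 5p sequence was found in MIR548AQ alone. Some of the 41 reads may therefore come from MIR548H3, and the 3p share need not be that of 1 hairpin. The gene MIR548AQ lies at chr3:185767847-185767904 (minus strand), in an intron of IGF2BP2, an mRNA-binding protein. Of these 5 names, none had a difference in 3p share between the groups with an exact permutation p under 0.4.

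Seed sums were formed only over the 32 rows whose RefSeq sequence was used, so the other 21 rows, miR-548d-5p and miR-548ae-5p among them, are in none of them. The 7 rows with seed AAAGUAA summed to 165.66, 123.94 and 131.13 CPM in LINC00673 libraries and 82.76, 138.06 and 128.56 CPM in NC libraries, with overlap, and miR-548j-5p made up most of each sum. The 4 rows with seed AAAAACU summed to 21.04, 18.86 and 10.49 against 33.11, 16.05 and 20.30 CPM, also with overlap.

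Other miRNAs named as derived from Made1 elements were low too. The level of miR-570-3p was 5.26, 1.35 and 6.56 CPM in LINC00673 libraries and 8.28, 12.84 and 10.15 CPM in NC libraries. Every LINC00673 library was below every NC library, as in 7.65% of all tested rows (log2 difference -1.23, standard error 0.71, limma adjusted p = 0.527). LINC00673 replicates 1 and 2 were under their 3-read floors of 7.89 and 4.04 CPM. Neither miR-579-5p (0 to 12.12 CPM) nor miR-579-3p (2.07 to 10.15 CPM) passed. Thus 0 of 3 rows passed, where 0.247% of all tested rows did. The deposited table has no row for miR-603, another such name. Names derived from the older L2 elements covered a wide range of levels. The rows miR-28-5p (6.42 to 24.25 CPM), miR-95-3p (73.85 to 83.52 CPM), miR-151a-5p (581.93 to 825.54 CPM) and miR-28-3p (984.55 to 1580.73 CPM) lay below miR-151a-3p. Its level was 10817.83, 14106.57 and 13699.37 CPM in LINC00673 libraries and 18333.53, 17046.18 and 11922.85 CPM in NC libraries, where NC replicate 3 lay within the LINC00673 range. None of their 5 tested rows passed limma (adjusted p = 0.586 to 0.988), and miR-95-5p, with 1 read, was not tested.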

How the data were processed

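The authors deposited CPM values (reads scaled to a common library total) per mature miRNA for 6 libraries made with a NEBNext small RNA kit from TRIzol RNA, per the labels. The submitters' processing notes name hg38; no aligner, counter or miRNA annotation is given. Ligation bias differs by sequence, so levels of different members are not molar ratios. All CPM values above 0 were whole multiples of 1 read (100% within 0.1 read), which returned denominators of 295567 to 762663 reads. Every pair of libraries differed beyond sampling noise (smallest chi-square per degree of freedom 2.37). Rows with a mean of at least 1 CPM were tested two-sided in R 4.3.3 by limma 3.58.1, trend option, from log2(CPM + 1), Benjamini-Hochberg adjusted over 810 rows at 0.05. Fold changes on that scale understate low rows. The fit was also run on simulated counts with large differences only and no library differences beyond depth. That run does not bear on small differences. Sums, counts and shares had exact permutation tests. edgeR 4.0.16 and DESeq2 1.42.0 on the recovered reads, other scalings, filters and left-out libraries were alternatives. Intervals cover counting error alone, without molecular identifiers. Detection at equal depth is a hypergeometric expectation. Named were members with a mean of at least 5 CPM (at most 20), those with an unadjusted p under 0.05 or no overlap, identical sets, the 5 most abundant names with both arms, and all rows of the Made1 and L2 names. Members and lists were chosen with earlier results of these data known. One precursor sequence is not reported here.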

Additional observations from a re-analysis of the deposited data

How the results depend on the processing

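No miR-548 member passed under any of the 15 alternative fits, including the replicate block (0 members, 2 miRNAs in all). The number of miRNAs past the threshold over the whole table was 2 and became 0 with a pseudocount of 0.5 or a minimum mean of 5 CPM, 8 with a pseudocount of 5, 11 with no minimum, 22 in edgeR, 15 in DESeq2, 1 with identical rows merged, and 0 to 28 when 1 library was left out, with 28 without NC replicate 3. The summed level differed by -4.67 CPM, by 27.8 CPM after TMM scaling, and by -16.5 to 10.1 CPM with 1 library left out; it was above 0 without LINC00673 replicate 2 (10.1) or NC replicate 3 (3.90). With the replicate block the sum gave -4.67 CPM, the rows detected 6.0 and the 3p share -6.17 points (exact sign-flip p = 0.75, 0.5 and 0.25); correlations of deviations between libraries of the same number were 0.01 to 0.07, and not every library correlated best with its own number, so the numbers were not taken as pairs. Without 1 library the 3p share difference was -7.64 to -4.48 points, the difference in rows detected 4.0 to 8.5, and the miR-548t share difference 29.1 to 41.9 points, an alternative chosen after seeing the data. Of 34 named rows with a log2 difference, 22 kept their sign under every alternative and 12 did not; none of the 12 passed in any fit, and the cause was not tested. With 1 library left out, their log2 differences ran from -0.53 to 0.47 for miR-548k, -0.0020 to 0.40 for miR-548d-5p, -0.22 to 0.41 for miR-548ay-5p, -0.072 to 0.42 for miR-548ay-3p, -0.17 to 0.35 for both miR-548c-5p and miR-548o-5p, -0.026 to 0.42 for miR-548ad-5p, -0.40 to 0.31 for miR-548am-5p, -1.61 to 0.0059 for miR-548j-3p, -0.29 to 1.19 for miR-548aq-5p, -0.90 to 0.96 for miR-579-5p and -0.36 to 0.51 for miR-28-5p. For miR-579-5p the value was 0.039 with a pseudocount of 5, 0.69 in edgeR and 0.39 in DESeq2, against -0.25. Depth limits all of these: 20 rows had under 3 reads in every library, and the 3-read floor was 3.93 to 10.1 CPM.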
